A study of Mus musculus with 9 samples.

Results

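Truncated CCAT was compared with untransfected cells on 3 of the 9 arrays of the study, those titled as replicates 1, 2 and 3 of the truncated construct. CCAT is the C-terminal end of the calcium channel CaV1.2, which can act as a transcription factor, and the study set out to find its target genes. The truncated construct codes for the last 280 residues of the channel and was made without the activation domain, although the labels add that it was later found to keep some activity, far below that of the full-length construct of 503 residues. Neuro2A cells, a mouse neuroblastoma line, received the construct in the plasmid PA1 by lipid transfection, and cells positive for GFP were sorted 24 hours later. The control was untransfected Neuro2A cells grown alike and passed through the same kind of sorter. The full-length construct was set against the same kind of control on 3 other arrays of the same design, and against empty PA1 on 3 arrays of another design.

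Both channels of an array held total RNA, with the truncated construct in Cy3 and the untransfected cells in Cy5 on all 3 arrays, so a gene-specific dye effect was not separated from the ratios. The truncated construct was not set against empty PA1, and the design text states that the plasmid alone raised some genes. Effects of the construct, of the plasmid and of transfection therefore cannot be told apart in the values below. The treatment text of replicate 3 names the full-length construct, whereas its title and source name give the truncated one. Its ratios correlated over genes at r = 0.92 and r = 0.95 with the other truncated arrays and at 0.79, 0.76 and 0.73 with full-length replicates 1, 2 and 3, and counts without it are given below. The labels do not say whether replicates came from separate cultures, so p-values measure only the spread between these arrays, which may be technical.

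Values are log2 ratios unless stated otherwise, with positive values read as higher in transfected cells. That order is likely rather than stated. It rests on Gjb5, a connexin gene recalled as a target of CCAT from the study itself, which had a mean of 3.84 for full-length CCAT over empty PA1, and on the design text's remark about the plasmid. If the order is the reverse, every direction below turns together. The deposited ratios carry neither the brightness of a spot nor a flag for background, so presence or absence of neuroblastoma markers could not be checked by level.

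As background, cells that sense foreign nucleic acid make type I interferon, whose receptor activates a complex that holds Stat2 and Irf9. This complex binds the interferon-stimulated response element and turns on genes that block viral replication, mark infected cells or display peptides on MHC class I. A separate sensing system uses prolyl hydroxylases, the Egln enzymes, to mark the alpha subunits of hypoxia-inducible factor (HIF) for destruction while oxygen is present, and HIF in turn activates genes of glucose uptake, glycolysis and cell survival. Neuroblastoma cells derive from the sympathetic lineage and carry many neuronal channels, receptors and peptide precursors.

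Genes of the interferon response held many of the highest ratios, and the windows around their start sites are shown because they carry the response element in different numbers and places. Each window runs from 250 bases before to 50 bases after the start of the gene, read 5′ to 3′ along the gene's strand from RefSeq's GRCm38.p6 tables. Capitals mark matches on either strand to the element's core, which is GAAA, any 2 bases and GAAA, so a match on the opposite strand reads TTTC, any 2 bases and TTTC. The lines give Cxcl10 at chr5:92348840-92349139 (minus strand), Isg15 at chr4:156200769-156201068 (minus), Ifit1 at chr19:34640639-34640938 (plus), Irgm1 at chr11:48871371-48871670 (minus) and the first of the Gbp3 windows at chr3:142559794-142560093 (plus).
Cxcl10: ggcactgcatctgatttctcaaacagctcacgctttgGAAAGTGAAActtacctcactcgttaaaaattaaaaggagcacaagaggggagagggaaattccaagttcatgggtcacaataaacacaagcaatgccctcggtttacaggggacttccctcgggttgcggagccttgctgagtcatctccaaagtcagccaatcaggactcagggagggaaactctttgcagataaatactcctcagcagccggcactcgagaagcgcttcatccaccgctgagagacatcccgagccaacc
Isg15: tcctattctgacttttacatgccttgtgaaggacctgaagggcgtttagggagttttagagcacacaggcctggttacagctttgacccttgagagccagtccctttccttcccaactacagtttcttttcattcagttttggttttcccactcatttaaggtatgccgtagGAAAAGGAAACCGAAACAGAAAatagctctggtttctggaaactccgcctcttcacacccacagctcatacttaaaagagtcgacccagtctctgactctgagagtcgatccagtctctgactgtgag
Ifit1: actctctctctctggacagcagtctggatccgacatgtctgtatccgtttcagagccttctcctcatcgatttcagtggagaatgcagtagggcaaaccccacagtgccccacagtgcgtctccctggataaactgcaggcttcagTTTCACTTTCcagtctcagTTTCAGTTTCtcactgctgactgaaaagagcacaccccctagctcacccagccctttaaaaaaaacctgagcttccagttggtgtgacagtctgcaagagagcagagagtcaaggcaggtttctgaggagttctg
Irgm1: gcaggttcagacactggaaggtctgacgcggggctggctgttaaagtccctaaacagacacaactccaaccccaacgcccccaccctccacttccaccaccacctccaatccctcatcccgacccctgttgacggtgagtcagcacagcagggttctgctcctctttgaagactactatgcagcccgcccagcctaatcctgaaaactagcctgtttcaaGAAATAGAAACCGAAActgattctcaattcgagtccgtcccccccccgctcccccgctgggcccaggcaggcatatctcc
Gbp3: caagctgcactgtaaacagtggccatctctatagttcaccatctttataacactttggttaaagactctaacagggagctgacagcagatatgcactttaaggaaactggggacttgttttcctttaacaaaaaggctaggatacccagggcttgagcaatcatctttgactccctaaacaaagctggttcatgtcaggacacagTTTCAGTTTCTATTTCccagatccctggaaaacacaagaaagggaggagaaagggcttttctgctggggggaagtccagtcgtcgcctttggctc
Cxcl10 had 1 match, beginning 213 bases before the start. Isg15 had 3 matches that overlap each other, at 78, 72 and 66 bases before the start. Ifit1 had 2 separate matches, at 104 and 85 bases, whereas the 2 matches of Irgm1, at 30 and 24 bases, and those of Gbp3, at 45 and 39 bases, overlap. A window at another start of Gbp3 had none. Of 13223 tested genes with a window, 512 (3.87%) held a match. A match says only that these letters are there.

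On the 3 truncated arrays 16504 named genes were tested, and array medians lay between -0.0043 and -0.0027. Ratios of the 3 arrays correlated over genes at r = 0.93, 0.92 and 0.95. A gene's SD over the 3 arrays had a median of 0.041, against 0.071 on the full-length arrays. With so small a spread limma called 12842 genes (77.8%) at an adjusted p under 0.05, 6307 higher (38.2%) and 6535 lower (39.6%), although the median called gene moved by only 0.276 in either direction. The test alone thus says little about size, and the counts below also require a mean of at least 1.5-fold or 2-fold. At 1.5-fold, 1115 genes were higher (6.76%) and 638 lower (3.87%). At 2-fold, 297 were higher (1.8%) and 85 lower (0.515%), which makes the large ratios mostly positive. Another 40 genes passed 1.5-fold and 5 passed 2-fold by the mean without passing the adjusted p.

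Replicate 3 did not decide these counts. Without it, 303 genes were called at least 2-fold higher and 82 lower, and 358 genes were shared with the 382 of all 3 arrays. When limma tested against a 1.5-fold change itself instead of against 0, 557 genes were higher and 204 lower, so many genes just above 1.5-fold were not shown to exceed it.

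**Figure D1:**
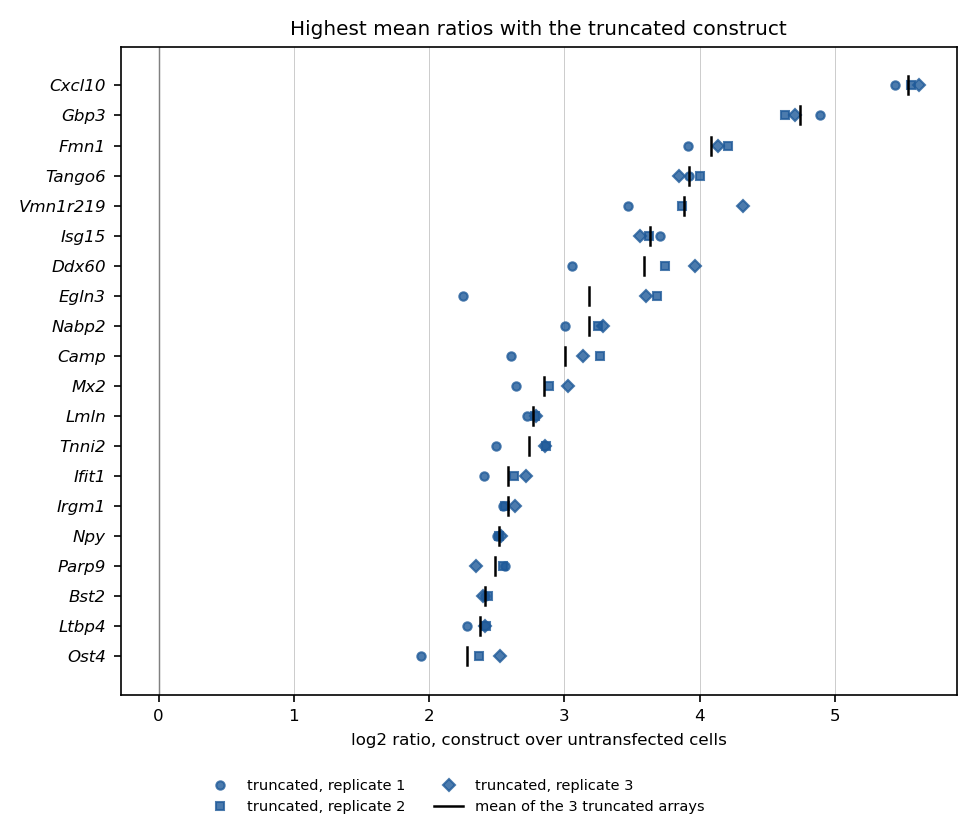
Log2 ratios (horizontal axis) of the 20 genes with the highest called means, with 1 point for each truncated array and a bar at their mean; clone and gene-model symbols were left out. Cxcl10 stands at the top with a mean of 5.54, Ost4 at the bottom with 2.28, and Egln3 and Ddx60 have a lower first array.

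Cells with truncated CCAT had far higher levels of antiviral interferon genes. The highest ratio of all named genes was that of Cxcl10, a chemokine that draws T cells and is induced by interferon. Its arrays gave 5.45, 5.56 and 5.62, a 46.6-fold higher level (5.54, SD 0.089, n = 3, limma adjusted p = 0.000235). The 3 arrays lay within 0.2 of each other and far from 0. Gbp3, a guanylate-binding GTPase that acts against intracellular microbes, gave 4.89, 4.63 and 4.70, a 26.7-fold higher level (SD 0.135, adjusted p = 0.000235).

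Among 34 measured antiviral effectors, 26 were called higher and 2 lower. The called counts of this and every later list stand beside 38.2% of all genes called higher and 39.6% lower. At least 1.5-fold, 17 were higher and none was lower, against 6.76% and 3.87% of all genes, and 14 were at least 2-fold higher. The list's median was 0.564, against -0.006 over all genes. Isg15, a ubiquitin-like protein joined to other proteins during infection, gave 3.71, 3.63 and 3.56 and was 12.4-fold higher (SD 0.073, adjusted p = 0.000235). Ddx60, a helicase linked to the sensing of viral RNA, gave 3.06, 3.74 and 3.96, with the first array clearly below the others (mean 3.59, SD 0.473, adjusted p = 0.000643). Mx2, a dynamin-like GTPase, had a mean of 2.85 (SD 0.195). Ifit1, which binds viral RNA lacking host marks, gave 2.40, 2.62 and 2.72 (mean 2.58, SD 0.161, adjusted p = 0.000258). Parp9, which takes part in ADP-ribosylation, and Bst2, the tetherin that holds budding virus at the cell surface, had means of 2.49 and 2.41. The arrays of Bst2 were almost the same, at 2.41, 2.43 and 2.40.

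The effectors did not move as one block. Ifit3, a close relative of Ifit1, and Mx1, the relative of Mx2, had means of 0.03 each, and Oas3, an enzyme that makes the activator of RNase L, had -0.46, values picked out after they were seen. Of the 11 measured interferon-inducible GTPases, 8 were called higher and 3 lower, 5 were at least 1.5-fold higher and none 1.5-fold lower, and the median was 0.347. After Gbp3 came Irgm1, which acts in the clearance of intracellular microbes, with 2.55, 2.56 and 2.63 (mean 2.58, SD 0.045, adjusted p = 0.000235), and its relative Irgm2 with a mean of 1.53. Gvin1, a very large GTPase, ranged from 0.61 to 1.49 over the arrays, and its adjusted p of 0.0109 became 0.0545 without replicate 2. Gbp4, another guanylate-binding protein, was lower at -0.56.

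Of 30 sensors and transcription factors of the pathway, 13 were called higher and 9 lower, beside 38.2% and 39.6% of all genes. Of these 30, 5 were at least 2-fold higher and 1 at least 1.5-fold lower. Their median of 0.057 lay close to that of all genes. The 5 that were 2-fold higher included members of the interferon complex, Stat2 at 1.83, 1.94 and 1.91 and Irf9 at 1.85, 1.95 and 1.72, with adjusted p = 0.000235 and 0.00026. Irf7, which amplifies interferon production, had a mean of 1.27, and Mavs, the mitochondrial adaptor of RNA sensing, 1.02. Ddx58, the RNA sensor RIG-I, spread widely over the arrays at 2.29, 1.80 and 1.26 (adjusted p = 0.00411). Irf3, the factor that starts interferon production, was the 1 member lower by 1.5-fold, at -0.79, -0.81 and -0.77. Its fall was 1.73-fold (SD 0.017, adjusted p = 0.000235).

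MHC class I and antigen processing genes were mostly higher. Of 18 measured, 16 were called higher and 2 lower, 12 were at least 1.5-fold higher and none 1.5-fold lower, with a median of 0.694. The class I genes H2-Q7, H2-T23 and H2-K1 had means of 1.38, 1.27 and 1.15, with SDs of 0.010, 0.043 and 0.012. Class I genes are near-identical in sequence, so their features may bind RNA of relatives and single members are uncertain. Psmb8, a subunit of the immunoproteasome that cuts peptides for display, had 1.29, 1.38 and 1.31. Tap2, which carries peptides into the endoplasmic reticulum, and Tapbp, which loads them, had means of 1.29 and 1.06.

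Other chemokines had lower ratios than Cxcl10. Of 31 measured, Cxcl10 included, 5 were at least 1.5-fold higher and 1 lower, and the median was -0.074. Ccl5, which attracts T cells, gave 1.42, 1.35 and 1.56 (SD 0.106, adjusted p = 0.000294). Ccl25 and Cx3cl1, the latter a membrane-bound chemokine of neurons, had means of 1.38 and 0.92, and Ccl24, which attracts eosinophils, was the member that fell, at -0.76. Of 26 subunits and targets of NF-kappaB, the inflammatory transcription factor, 3 were at least 1.5-fold higher and none lower, with a median of 0.000. Those 3 were the inhibitors Nfkbib (0.86) and Nfkbia (0.77) and the adhesion gene Icam1 (0.65).

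Over the effector, GTPase and sensor lists together, 75 genes were measured, of which 27 were at least 1.5-fold higher, 23 at least 2-fold higher and 1 at least 1.5-fold lower. The response element described above was in the windows of 26 of the 59 list members that had one (44.1%). It was in 11 of 18 windows of list members at least 2-fold higher (61.1%) and in 15 of 41 of the others (36.6%). Outside the lists it was in 18 of 233 windows of genes at least 2-fold higher (7.73%), and it was in 3 of 71 windows of genes at least 2-fold lower (4.23%), against 3.87% over all genes. Interferon genes may have been listed partly because they carry this element, and these shares are descriptions. For the full-length construct over empty PA1, the means of Cxcl10, Gbp3 and Isg15 were 0.23, 0.37 and 0.27. No such value exists here for the truncated construct, and the part of the plasmid in its interferon ratios was not tested.

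**Figure D2:**
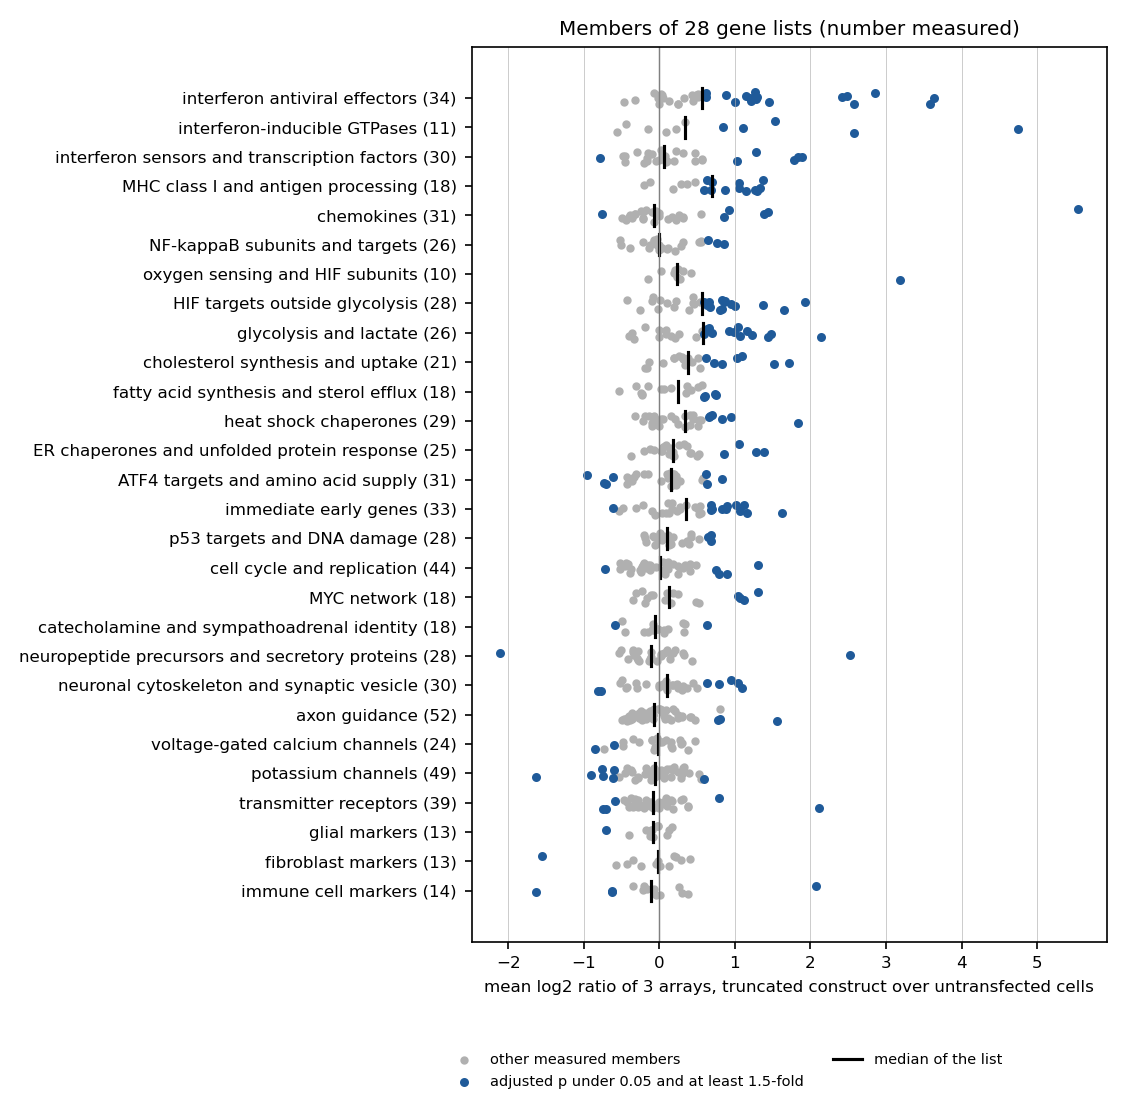
Mean log2 ratio over the 3 truncated arrays (horizontal axis) of every measured member of 28 gene lists, with the number measured after each name; blue points passed adjusted p under 0.05 and 1.5-fold, grey points did not, and bars mark list medians. The highest medians belong to MHC class I (0.694), glycolysis (0.575), antiviral effectors (0.564) and HIF targets (0.564).

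Genes of low-oxygen response and glycolysis were a further group with high ratios. Of 64 genes on the oxygen-sensing, HIF-target and glycolysis lists, 28 were at least 1.5-fold higher, 12 at least 2-fold higher and none 1.5-fold lower, with a median of 0.450. Among the 10 oxygen-sensing genes, 8 were called higher and 1 lower, but only Egln3 passed 1.5-fold. Egln3, the prolyl hydroxylase that is itself induced by HIF, gave 2.25, 3.69 and 3.60, which made it 9.05-fold higher (mean 3.18, SD 0.807, adjusted p = 0.00291). Its first array was more than 1.3 below the other arrays, and the lowest of the 3 was still above 2. The related hydroxylases Egln1 and Egln2 had 0.23 and 0.25.

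The subunits of HIF changed little. Hif1a, the oxygen-regulated subunit, had 0.31 (adjusted p = 0.00167), Arnt and Arnt2, its partners, 0.20 and 0.20, and Hif3a 0.28. Epas1, the alpha subunit HIF-2, had 0.027 and no call (adjusted p = 0.399). Vhl, which binds the hydroxylated subunits for destruction, was higher at 0.41. Hif1an, a hydroxylase that blocks HIF's activation domain, had -0.15 with adjusted p = 0.0392, a call lost without replicate 2 (0.141) or replicate 3 (0.144). Its 2 features had opposite signs, at -0.36 and 0.061.

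HIF targets outside glycolysis had 28 measured members, of which 22 were called higher and 4 lower, 14 at least 1.5-fold higher and none 1.5-fold lower. Ndrg1, a stress-induced gene of differentiation, gave 1.87, 1.98 and 1.94 (3.81-fold, SD 0.056, adjusted p = 0.000235). Bnip3, which starts the removal of mitochondria, gave 1.59, 1.72 and 1.66 (3.15-fold, SD 0.061, adjusted p = 0.000235). The arrays agreed closely for both genes. Bhlhe40, a transcriptional repressor, Kdm3a, a histone demethylase, and P4ha1, a collagen prolyl hydroxylase, had means of 1.38, 1.01 and 0.86. Stc2, a secreted glycoprotein, had 0.95. Common HIF targets such as Vegfa (0.44) and Car9 (0.11), named here after their values were seen, stayed under 1.5-fold.

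Along the glycolytic pathway 20 of 26 measured genes were called higher and 4 lower, 13 at least 1.5-fold higher and none 1.5-fold lower, with a median of 0.575. Slc2a1, the glucose transporter GLUT1, gave 1.46, 1.43 and 1.42, and Aldoa, an aldolase, 1.18, 1.16 and 1.14. Tpi1 and Pgk1, other enzymes of the pathway, had means of 1.47 and 1.23, and Ldha, which makes lactate, and Slc16a3, which exports it, 1.04 and 1.07. SDs of these 6 genes did not exceed 0.020. Pdk1, the kinase that keeps pyruvate out of mitochondria, was the highest of the list at 1.70, 2.37 and 2.33, with the first array lowest as for Egln3 (mean 2.14, SD 0.375, adjusted p = 0.00118). For the full-length construct over empty PA1, the means of Egln3, Ndrg1, Bnip3 and Pdk1 were -0.27, 0.14, 0.15 and 0.16. Those of Slc2a1, Aldoa, Tpi1, Pgk1, Ldha and Slc16a3 were -0.07, -0.37, 0.12, -0.12, -0.12 and -0.07. The truncated construct has no such value, and the part of the plasmid was not tested.

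The Egln3 window is shown for the core of the HIF response element, ACGTG on either strand. It lies at chr12:54203825-54204124 on the minus strand of GRCm38.p6, from RefSeq, with the match in capitals 229 bases before the start.
Egln3: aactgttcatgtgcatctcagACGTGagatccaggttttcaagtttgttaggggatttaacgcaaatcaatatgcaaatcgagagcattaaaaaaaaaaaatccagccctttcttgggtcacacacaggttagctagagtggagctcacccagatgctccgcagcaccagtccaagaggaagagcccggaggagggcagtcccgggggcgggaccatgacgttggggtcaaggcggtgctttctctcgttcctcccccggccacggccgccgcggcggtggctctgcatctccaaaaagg
The same letters were in 17 of the 28 windows of oxygen-sensing and HIF-target genes (60.7%) and in 25.7% of all windows. They were in 31.1% of windows of genes at least 2-fold higher and in 22 of 71 windows of genes at least 2-fold lower (31.0%). HIF targets may have been listed partly because they carry this core, and these shares are descriptions.

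**Figure D3:**
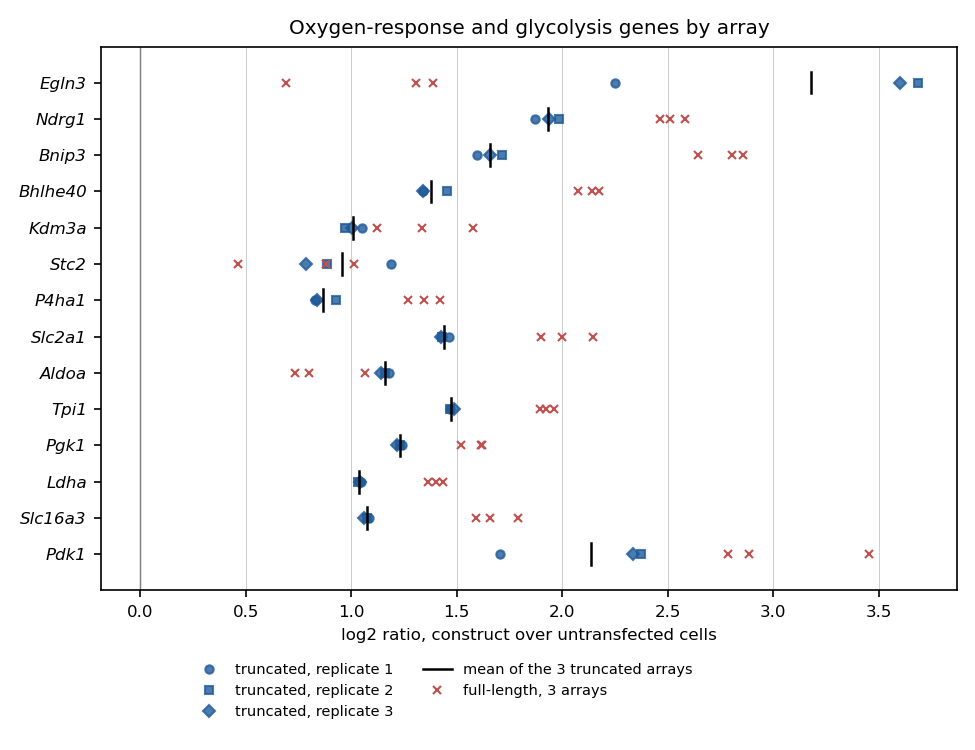
Log2 ratios (horizontal axis) of 14 oxygen-response and glycolysis genes over untransfected cells, with blue points for each truncated array, a bar at their mean and red crosses for the 3 full-length arrays. Egln3 and Aldoa lie higher with the truncated construct, whereas Bnip3, Ndrg1 and most glycolytic genes lie higher with the full-length one.

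Cholesterol synthesis genes were higher too, with 17 of 21 called higher and 3 lower, and 7 at least 1.5-fold higher against none lower (median 0.377). Hsd17b7 and Lss, enzymes of the late pathway, gave 1.67, 1.76 and 1.70 and 1.46, 1.56 and 1.55. Hmgcs1, an early enzyme, Insig1, which senses sterols, and Srebf2, the factor that drives the pathway, had means of 1.10, 1.03 and 0.72. Of 18 genes of fatty acid synthesis and sterol efflux, 4 were at least 1.5-fold higher and none lower, led by Fasn, the fatty acid synthase (0.75), and Me1, which supplies NADPH (0.74).

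Heat shock chaperones had 19 of 29 members called higher and 5 lower, 6 of them at least 1.5-fold higher and none lower (median 0.342). Hspa1a, the inducible HSP70, stood out at 1.94, 1.86 and 1.71 (3.57-fold, SD 0.120, adjusted p = 0.000264), and it was the only member past 2-fold. A near-identical copy of this gene exists in the mouse genome, so its feature may report either. Hsph1, a nucleotide exchange partner of HSP70, and Bag3, its co-chaperone, had 0.95 and 0.83. The heat shock element was read as GAA, any 2 bases, TTC, any 2 bases and GAA on either strand. Of 24 windows of this list 5 held it (20.8%), against 0.567% of all windows. It was in 3 of 251 windows of genes at least 2-fold higher (1.2%) and in 0 of 71 of genes at least 2-fold lower. Chaperones may have been listed partly because they carry this element, and these shares are descriptions.

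Among 25 chaperones and stress genes of the endoplasmic reticulum, 4 were at least 1.5-fold higher and none lower. Ppp1r15a, the phosphatase subunit that restores translation after stress, Dnajc3, a co-chaperone, and Hspa5, the main chaperone BiP, had means of 1.39, 1.28 and 1.05. ATF4 targets and amino acid genes went both ways, with 3 of 31 at least 1.5-fold higher and 4 lower. Chac1, which degrades glutathione, was lowest at -0.97, -0.93 and -0.95, followed by Cth, an enzyme of cysteine synthesis (-0.73), whereas Ddit4, an inhibitor of mTOR, was higher at 0.83.

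Immediate early genes, which respond first to growth signals and activity, were mostly higher: 25 of 33 were called higher and 6 lower, 11 at least 1.5-fold higher and 1 lower (median 0.350). Klf2, a zinc-finger factor, gave 1.66, 1.58 and 1.62, and Jun and Fosl2, components of AP-1, had means of 1.07 and 1.16. Ier3 and Klf6 had 1.12 and 1.02. Bdnf, the activity-induced neurotrophin, gave 0.97, 0.89 and 0.82. Of 18 feedback inhibitors of ERK signalling 3 were at least 1.5-fold higher, led by Dusp16 (0.77) and Dusp10 (0.70), phosphatases of stress kinases, while Dusp6, the ERK phosphatase, was the 1 lower member at -0.92, -0.88 and -0.89.

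The counts of p53, death and division genes stand beside 6.76% of all genes at least 1.5-fold higher and 3.87% lower. Of 28 p53 and DNA damage genes 3 were at least 1.5-fold higher and none lower, Gadd45g (0.69), Atm (0.69) and Cdkn1a (0.65), the last an inhibitor of cyclin-dependent kinases. Of 16 genes of the BCL2 family 2 were at least 1.5-fold higher and 1 lower, with Bnip3, given above among HIF targets, the highest at 1.66. Bad, a promoter of cell death, was lower at -0.99, and Bak1, a pore-forming death protein, higher at 0.72. Of 44 cell cycle genes 4 were at least 1.5-fold higher and 1 lower, with a median of 0.006. The highest was Cdkn2a, the tumour suppressor locus of p16 and p19, at 1.30, 1.26 and 1.37, and the lower one was Cdk1, the mitotic kinase, at -0.72, -0.70 and -0.71.

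Mycn, the oncogene amplified in many neuroblastomas, was 2.47-fold higher, with arrays at 1.30, 1.31 and 1.30 (SD 0.003, adjusted p = 0.000235). In all, 4 of 18 genes of the MYC network were at least 2-fold higher and none 1.5-fold lower, the others named being Mga, a partner of Max (1.12), and the nucleolar gene Ncl (1.06). Among 22 genes of the oxidative stress response 5 were at least 1.5-fold higher and 1 lower. Gclc, which makes the precursor of glutathione, and Keap1, the adaptor that degrades NRF2, had 1.19 and 1.14, and Prdx1, a peroxidase, was lower at -0.78, -0.80 and -0.77.

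Neuronal and sympathetic identity genes had medians near 0. Of 18 catecholamine and sympathoadrenal genes 1 was at least 1.5-fold higher, the homeobox gene Isl1 (0.63), and 1 lower, Th, the rate-limiting enzyme of catecholamine synthesis, at -0.52, -0.65 and -0.59. Of 30 cytoskeletal and synaptic vesicle genes 5 were at least 1.5-fold higher and 2 lower. Map1b, a microtubule-binding protein of growing axons, Syt4, a synaptotagmin, and Nefh, the heavy neurofilament, had means of 1.09, 1.04 and 0.95. Rab3a and Sv2a, proteins of synaptic vesicles, were lower at -0.81 and -0.77.

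Peptide precursors included an extreme gene at either end. Npy, neuropeptide Y of sympathetic neurons, gave 2.50, 2.52 and 2.53, a 5.73-fold higher level with arrays that nearly coincided (SD 0.015, adjusted p = 0.000235). Pdyn, the precursor of dynorphin opioids, gave -2.08, -2.01 and -2.22, a 4.29-fold lower level (SD 0.103, adjusted p = 0.00024). These were the only 1.5-fold changes among 28 measured precursors and secretory proteins, whose median was -0.109. Pomc, the precursor of other opioid and melanocortin peptides, and Gal, galanin, had 0.44 and -0.41.

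Of 19 neurotrophic factors and receptors, 1 was at least 1.5-fold higher, Bdnf, and 2 were lower. Artn, artemin, a survival factor of sympathetic neurons, gave -1.34, -1.34 and -1.48, a 2.61-fold lower level (SD 0.081, adjusted p = 0.000258). Ptn, pleiotrophin, was lower at -0.69. Of 52 axon guidance genes 3 were at least 1.5-fold higher and none lower. Nrp1, the semaphorin and VEGF co-receptor, led them at 1.56, 1.58 and 1.55, and Unc5b, a netrin receptor, and Efnb2, an ephrin, had 0.80 and 0.78. Ephb1, an Eph receptor, had a mean of 0.81 but arrays at 1.42, 1.00 and 0.00, and it was not called (adjusted p = 0.0862, and 0.01 without replicate 3).

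The ion channel lists held more genes at least 1.5-fold lower than higher, beside 3.87% lower and 6.76% higher of all genes. No gene of 24 voltage-gated calcium channel subunits was at least 1.5-fold higher and 2 were lower, the auxiliary subunits Cacnb2 (-0.86) and Cacng3 (-0.60). Cacna1a, the P/Q-type pore, ranged from -1.32 to -0.19 and was not called (adjusted p = 0.0577, and 0.0321 without replicate 1). Cacna1c, the gene of CaV1.2 itself, gave 0.26, 0.26 and 0.29 (mean 0.27, adjusted p = 0.000659). Whether its feature lies in the transfected part is not given in the sources used here, so this ratio does not check the transfection.

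Of 49 potassium channel genes 1 was at least 1.5-fold higher and 6 lower, with a median of -0.063. Kcnv1, a silent modifier subunit, gave -1.80, -1.59 and -1.50, a 3.09-fold lower level (SD 0.159, adjusted p = 0.000413). Kcnn3, a calcium-activated channel, gave -0.92, -0.91 and -0.88, and Kcnd1 and Kcnd2, A-type channels, had means of -0.76 and -0.61. Of 31 sodium, HCN and TRP channels none was at least 1.5-fold higher and 3 were lower, Trpc7 (-0.90), Trpv4 (-0.87) and the pacemaker channel Hcn4 (-0.70).

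Among 39 transmitter receptors 2 were at least 1.5-fold higher and 3 lower. Glrb, the beta subunit of the glycine receptor, gave 2.22, 2.03 and 2.08, a 4.31-fold higher level (SD 0.095, adjusted p = 0.000235). Gabrg1, a GABA-A subunit, was higher at 0.79, whereas Gabra5, another GABA-A subunit, and Chrna3, the ganglionic nicotinic subunit, were lower at -0.75 and -0.71. Calcium exchange and binding proteins split evenly, with 4 of 46 at least 1.5-fold higher and 4 lower. Nfatc3, a calcineurin-dependent factor, and the ryanodine receptor Ryr2 had 0.95 and 0.76. S100a6, a calcium-binding protein, was lower at -0.98, -1.02 and -1.01, and Vsnl1, a neuronal calcium sensor, at -0.88.

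Developmental signals held changes in both directions, as did all genes, of which 6.76% were at least 1.5-fold higher and 3.87% lower. Rspo2, which strengthens Wnt signalling, gave 2.10, 2.29 and 2.16 (4.54-fold higher, SD 0.100, adjusted p = 0.000235), while of 44 Wnt genes it was the only one at least 1.5-fold higher and 3 were lower. The lower ones were the Wnt inhibitor Dkk1 (-0.96) and the receptors Fzd8 (-0.93) and Fzd6 (-0.81). Of 29 Hedgehog and Notch genes 4 were at least 1.5-fold higher and 3 lower. Sufu and Cdon had the largest means, 0.94 and 0.87, with arrays from 0.45 to 1.34 and from 0.29 to 1.27. Dll4, a Notch ligand, had 0.74. Notch2, its target Hes1 and Hey2 were lower at -0.69, -0.69 and -0.60.

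The TGF-beta and BMP list, of 49 genes, held 5 at least 1.5-fold higher and 4 lower. Its extremes were relatives, since Ltbp4 and Ltbp1 both anchor latent TGF-beta in the matrix. Ltbp4 gave 2.28, 2.42 and 2.41 (5.18-fold higher, SD 0.077, adjusted p = 0.000235), and Ltbp1 gave -1.62, -1.64 and -1.53 (3.02-fold lower, SD 0.060, adjusted p = 0.000235). The ligands Gdf9 and Amh also lay on opposite sides, at 1.23 and -1.08. Among 18 SOX factors 1 was at least 1.5-fold higher and 3 were lower. The higher one was Sox4, active in immature neurons (0.90). Sox3 and Sox2, of neural progenitors, were lower at -1.25, -1.11 and -1.20 and -0.66, -0.84 and -0.87. Sox7 was the other lower member, with a mean of -0.59.

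Genes of the actin cytoskeleton lay at both ends. Fmn1, formin-1, which builds unbranched actin filaments, gave 3.91, 4.21 and 4.13, a 17-fold higher level (SD 0.153, adjusted p = 0.000235). Arhgap6, a GTPase-activating protein, gave -1.48, -2.12 and -1.93, a 3.59-fold lower level (SD 0.327, adjusted p = 0.00121), and Actr3, a subunit of the Arp2/3 complex, was lower at -0.77. Of 18 regulators of G-protein signalling none passed 1.5-fold in either direction. Of 14 connexins and pannexins 1 did, Gja3, which was lower at -0.86.

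High ratios also occurred for genes of tissues other than neurons. Vmn1r219, a pheromone receptor of the vomeronasal organ, gave 3.47, 3.87 and 4.32 (14.8-fold, SD 0.424, adjusted p = 0.000476), the only one of 13 vomeronasal and taste receptors past 1.5-fold. Tnni2, the inhibitory troponin of fast muscle, gave 2.49, 2.86 and 2.86 (6.67-fold, SD 0.213, adjusted p = 0.0003). Of 33 muscle contractile genes 3 were at least 1.5-fold higher and none lower, the others being Actc1, cardiac actin (0.88), and Myh3, embryonic myosin (0.82). Camp, the antimicrobial peptide cathelicidin, gave 2.60, 3.26 and 3.14, with the first array lowest (SD 0.351, adjusted p = 0.000525). The ratio says nothing of how much RNA a gene had in either channel.

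The remaining genes among the 20 highest have more general roles. Tango6, whose fly relative acts in Golgi organization, gave 3.92, 4.003 and 3.85, a 15.2-fold higher level (SD 0.077, adjusted p = 0.000235). Nabp2, which binds single-stranded DNA in repair, gave 3.01, 3.25 and 3.28, a 9.05-fold higher level (SD 0.151, adjusted p = 0.000235). Lmln, a metallopeptidase, gave 2.72, 2.78 and 2.79, and Ost4, a small subunit of oligosaccharyltransferase, gave 1.94, 2.37 and 2.53. The arrays of Lmln nearly coincided, whereas the first array of Ost4 was lowest. Of the 297 genes at least 2-fold higher, 221 were on none of the 44 lists, and of the 85 at least 2-fold lower, 74 were on none.

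**Figure D4:**
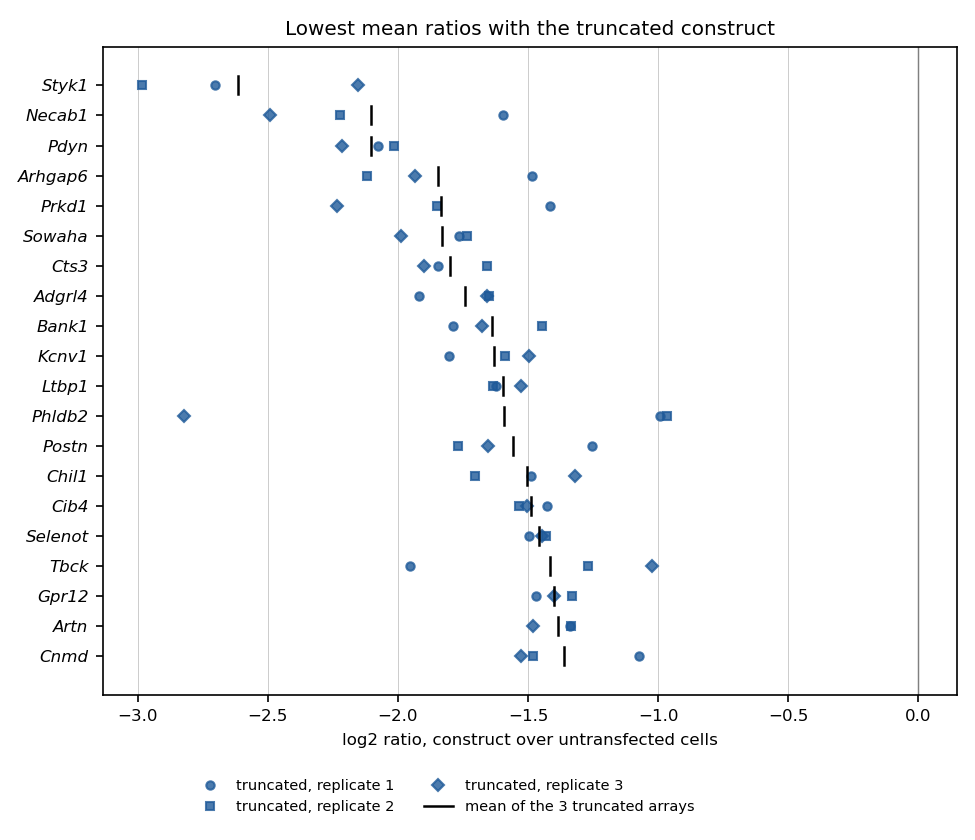
Log2 ratios (horizontal axis) of the 20 genes with the lowest called means, with 1 point for each truncated array and a bar at their mean. Styk1 is lowest with a mean of -2.61, and 1 array of Phldb2 lies at -2.82, far from the other arrays of that gene.

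The lowest ratio was that of Styk1, a kinase-like membrane protein, at -2.70, -2.98 and -2.15, a 6.12-fold lower level (SD 0.422, adjusted p = 0.000982). Necab1, a neuronal calcium-binding protein, gave -1.60, -2.22 and -2.49, a 4.3-fold lower level (SD 0.459, adjusted p = 0.00199). All 3 arrays of both genes lay below -1.5, with a spread wider than that of most genes. Prkd1, protein kinase D1, gave -1.42, -1.85 and -2.23, and Sowaha, an ankyrin-repeat protein, gave -1.77, -1.74 and -1.99. Adgrl4, an adhesion receptor of endothelial cells, had a mean of -1.74, and Cts3, a placental cathepsin, -1.80. Selenot, a selenoprotein of the endoplasmic reticulum, was tight at -1.50, -1.43 and -1.44, and Gpr12, an orphan receptor of the brain, had -1.40. Chil1, a chitinase-like secreted protein, Cib4, of a family that binds calcium and integrins, and Cnmd, chondromodulin, had -1.50, -1.49 and -1.36. Tbck, a TBC-domain kinase, ranged from -1.95 to -1.02. Phldb2, a protein of the cell cortex, gave -0.99, -0.97 and -2.82, so replicate 3 set its mean of -1.59, and its adjusted p of 0.0407 became 0.0787 without replicate 1 and 0.0694 without replicate 2.

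Of 9 genes recalled as CCAT targets from the study, 2 were called higher and 4 lower, beside 38.2% and 39.6% of all genes, and 1 was at least 1.5-fold higher and 2 lower. Fmn1 is described above. Gjb5, the connexin, gave only 0.29, 0.37 and 0.28 (mean 0.31, SD 0.047, adjusted p = 0.00125), and in a fit shared with the full-length arrays its adjusted p was 0.224. Kcnn3 and Trpv4, an osmosensitive channel, were lower at -0.91 and -0.87. Myl9, a myosin light chain, had -0.14, a call lost without replicate 3 (adjusted p = 0.0866), and Sema5a, a semaphorin, had -0.080, a call lost without any one replicate (adjusted p up to 0.134). The netrin Ntn4 gave -0.54, -0.19 and 1.07 and had no call (adjusted p = 0.794), and its mean was -0.36 without replicate 3. The sodium-calcium exchanger Slc8a1 had 0.002, and Rgs5 had -0.010, with no call for either. Features of opposite sign were averaged for Myl9 (-0.35 and 0.070), Slc8a1 (-0.051 and 0.055) and Rgs5 (-0.11 and 0.093). Over empty PA1, full-length CCAT gave means of 0.10 for Fmn1, 3.84 for Gjb5, -0.88 for Kcnn3 and -0.82 for Trpv4. Its means for Myl9, Sema5a, Ntn4, Slc8a1 and Rgs5 were 0.155, -0.31, 0.58, -0.18 and 0.79. The list was recalled from a study of these samples and is no independent evidence of any direction.

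Markers of other cell types had medians of -0.089 over 13 glial genes, -0.012 over 13 fibroblast genes and -0.116 over 14 immune genes. In the glial list none was at least 1.5-fold higher and 1 lower, Slc1a3, a glutamate transporter (-0.70, a call lost without replicate 2 or 3). In the fibroblast list none was higher and 1 lower, Postn, a matrix protein, at -1.25, -1.77 and -1.65. In the immune list 1 was higher and 3 were lower. H2-Ob, a class II chain of B cells, gave 2.17, 1.92 and 2.15, whereas Bank1, a B cell scaffold, gave -1.79, -1.45 and -1.68, and Lyz2, lysozyme, and Cd14, of macrophages, had -0.63 and -0.62. Both channels held RNA of the Neuro2A line, so these ratios are not read as amounts of other cell types. What they reflect was not tested.

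Truncated and full-length arrays share the kind of control, so each construct's values are given side by side and only their difference is tested, on the 6 arrays. That difference was called for 5646 genes (34.2%), and for 3731, 3595 and 3415 without truncated replicates 1, 2 and 3. At least 2-fold, 16 genes were higher with full-length CCAT (0.0969%) and 53 lower (0.321%), and the 16 became 10 without truncated replicate 1 and 26 without full-length replicate 1. Of the 297 genes at least 2-fold higher with truncated CCAT over untransfected cells, 173 were higher than with full-length CCAT, 34 were lower and 90 had no call. At least 2-fold apart from the full-length value were 44 of them, 41 higher and 3 lower. Of the 85 genes at least 2-fold lower, 61 had no call of a difference, 23 were lower than with full-length CCAT and 1 was higher. Because these genes were chosen on the truncated arrays, that imbalance is a description.

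**Figure D5:**
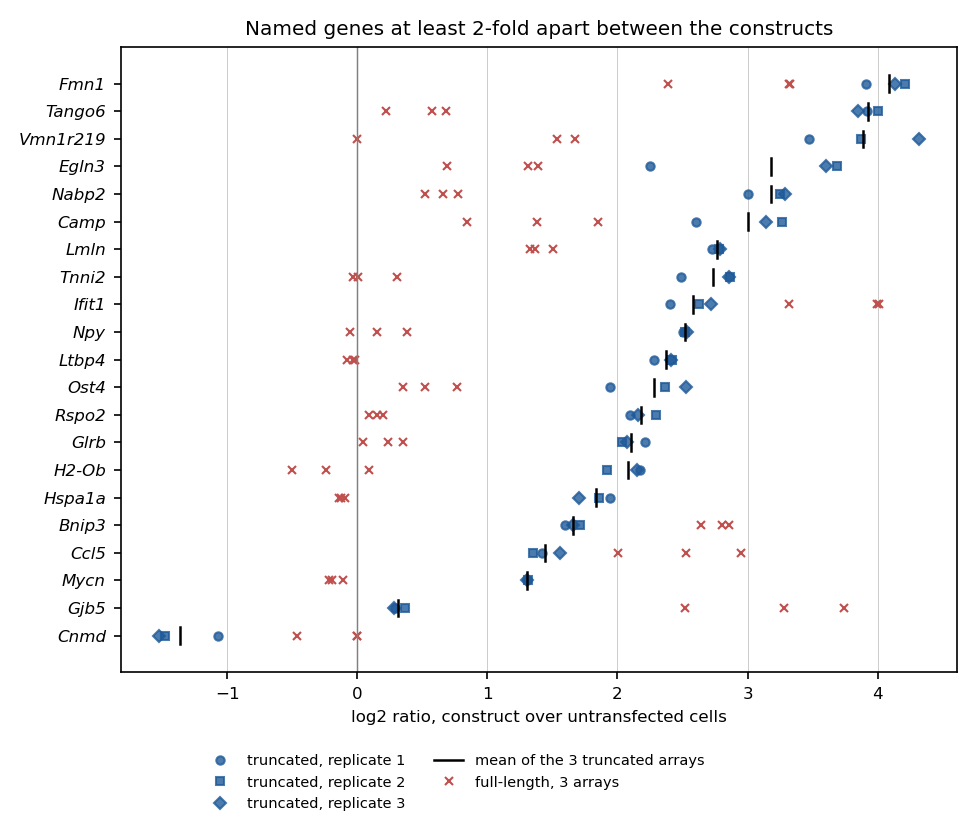
Log2 ratios over untransfected cells (horizontal axis) of the 21 named genes that differ at least 2-fold, with a call, between the constructs; blue points are the truncated arrays, bars their means and red crosses the full-length arrays. Tnni2, Npy, Ltbp4, Rspo2 and Glrb have full-length means between -0.04 and 0.21 and truncated means above 2, whereas Gjb5 is higher with the full-length construct.

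The gene with the widest gap was Tango6, 10.8-fold higher with truncated than with full-length CCAT, whose arrays had a mean of 0.49 (adjusted p of the difference = 0.000327). Full-length CCAT left Npy at 0.16, Tnni2 at 0.094, Ltbp4 at -0.043, Rspo2 at 0.15 and Glrb at 0.21, genes with truncated means between 2.11 and 2.74. Hspa1a and Mycn were at -0.12 and -0.17 with full-length CCAT (adjusted p = 0.000299 and 0.000185), against 1.84 and 1.31 with truncated CCAT. For Vmn1r219 and Nabp2 the full-length means were 1.07 and 0.65, and for Egln3 1.13, with adjusted p of the difference of 0.0085, 0.000327 and 0.0157.

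In the other direction, Gjb5 had a full-length mean of 3.18, 7.3-fold above its truncated value (adjusted p = 0.00176). Bnip3, Ifit1 and Ccl5 were also at least 2-fold higher with full-length CCAT, by 1.11, 1.19 and 1.05 on the log2 scale. For Cxcl10 the constructs differed by -0.16 (SE 0.0833, adjusted p = 0.196), and for Stat2 by -0.054 (SE 0.0375, adjusted p = 0.315), neither of which was called. Isg15 was somewhat higher with full-length CCAT, by 0.64 (adjusted p = 0.00123). Among the lowest genes, Sowaha, Kcnv1 and Necab1, picked after their values were seen, differed by 0.012, -0.003 and -0.020. Their SEs were 0.57, 0.32 and 0.34 (adjusted p = 0.994, 0.999 and 0.974), too wide to show equal levels. Of the other lowest genes, Cnmd, Prkd1 and Selenot were called higher with full-length CCAT, by 1.21, 0.92 and 0.35. Their adjusted p were 0.00484, 0.0414 and 0.00282. Arhgap6, Adgrl4, Gpr12 and Artn differed by 0.78, 0.56, -0.17 and -0.15 without a call (SE 0.61, 0.31, 0.12 and 0.071).

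A single feature stood for each of the 20 highest and 20 lowest genes, so no second feature checked them. Where a gene had several features they often disagreed. Of 1193 such genes, 98 had a feature at least 2-fold from untransfected cells, and in only 6 of these were all features at least 2-fold in the same direction. Features of 30 of the 98 had opposite signs. Over all 98, which were chosen for a large feature, the median range within a gene was 1.19. As examples picked after their values were seen, H2-Q7 had 10 features between 1.36 and 1.41, which may be repeats of the same probe, while Swap70, a regulator of actin, had 0.21 and 2.97. Features of RefSeq mRNA accessions were at least 2-fold higher by the mean, with all 3 arrays higher, in 2.25% of cases. Those of RIKEN clones were so in 1.70%.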

How the data were processed

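Two-colour Agilent arrays of Neuro2A cells were used, 3 with truncated CCAT (Cy3) and untransfected cells (Cy5). The deposited values were log10 ratios of the channels, made by the authors with the Rosetta Luminator system per the labels. How background and dyes were handled, and which channel is the numerator, is not given in the sources used here. Samples were grouped by titles and source names.

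Ratios were converted to log2. A ratio of exactly 0 was held by 384, 376 and 379 features on truncated replicates 1, 2 and 3. On full-length replicates 1, 2 and 3 these were 344, 367 and 368. Whether a ratio of 0 was measured is not given in the sources used here. Of 22393 features, 18218 had 1 gene symbol in the platform annotation, 16 several and 4159 none, and 18175 symbols matched RefSeq's GRCm38.p6 gene table. Features with 1 symbol were averaged into 16504 genes. The ratio's mean over the 3 arrays was tested against 0 with limma 3.58.1 (R 4.3.3; eBayes after lmFit, 2 residual degrees of freedom, Benjamini-Hochberg adjustment over all genes, threshold 0.05), and full-length minus truncated on 6 arrays (4 residual degrees of freedom). Replicate numbers did not pair the samples. Genes named in the text were the 20 highest and 20 lowest called means in 1 direction on all 3 arrays, up to 6 members of each list with the largest means in either direction, all members of lists of 10 or fewer, Cacna1c and Gjb5, except where stated. Members, lists and rules were chosen with earlier results of these data known. The counts of 1 list are not reported here.

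On simulated data of 16504 genes, the truncated comparison recovered 93% of 100 genes shifted by 0.6 (log2) and 97% of 100 shifted by 1. It made 10 false calls among the genes left unshifted. For the difference these were 81%, 96% and 28. The simulated noise was independent between genes and arrays and held no dye or plasmid effect. These false calls therefore do not gauge those on the real arrays. The number of arrays limits precision. Alternatives covered array centring, tests of single features, quantile normalization, medians in place of means over features, ratios of 0, barely varying genes (largest ratio under 0.2), robust eBayes, a shared fit, testing against 1.5-fold, the replicate block, the sign turned and leaving out arrays. Figures were drawn with matplotlib 3.10.9.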

Additional observations from a re-analysis of the deposited data

Results flagged for a closer look

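The named genes below differed between the constructs by at least 2-fold with a call in limma's test of the difference. Values are full-length minus truncated log2 ratios, both over untransfected cells, so a negative value is higher with truncated CCAT. The widest gaps were those of Tango6 (-3.43), Vmn1r219 (-2.82), Tnni2 (-2.64), Nabp2 (-2.53), Ltbp4 (-2.42) and Npy (-2.36). H2-Ob had -2.29, Egln3 -2.05, Rspo2 -2.04, Hspa1a -1.96 and Glrb -1.90. Smaller gaps in the same direction were those of Ost4 (-1.73), Camp (-1.65), Mycn (-1.48), Lmln (-1.37) and Fmn1 (-1.08). Genes higher with full-length CCAT were Gjb5 (2.87), Cnmd (1.21), Ifit1 (1.19), Bnip3 (1.11) and Ccl5 (1.05). Cnmd was at least 2-fold lower than in untransfected cells with truncated CCAT, and its full-length arrays lay between -0.46 and 0.00. The limma adjusted p of these differences ranged up to 0.0284 (Fmn1). Why these genes differed was not tested.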

How the results depend on the processing

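Centring, quantile normalization, averaging by the median, single features, treating ratios of 0 as missing, leaving out barely varying genes, robust eBayes and a fit shared with the full-length arrays kept every count of the truncated comparison within 1.5 times. Testing against a 1.5-fold change left 761 called genes, 557 higher and 204 lower, which follows from the stricter null. With the sign turned, 638 genes were at least 1.5-fold higher and 1115 lower, 85 at least 2-fold higher and 297 lower, and each mean takes the opposite sign. Leaving out 1 truncated array gave 11022 to 12248 calls, 1081 to 1143 genes at least 1.5-fold higher and 617 to 656 lower, and 292 to 309 at least 2-fold higher and 82 to 97 lower. For full-length minus truncated, leaving out 1 of the 6 arrays gave 3415 to 5836 calls, with 3731, 3595 and 3415 without truncated replicates 1, 2 and 3. It gave 10 to 26 genes at least 2-fold higher, 10 without truncated replicate 1 and 26 without full-length replicate 1, and 50 to 57 lower. With the replicate number as a block 4016 genes were called, 16 at least 2-fold higher and 51 lower. Same-numbered deviations correlated at -0.043, 0.0909 and -0.00255, so the numbers were not taken as pairs. Without truncated replicate 3 the means of Ntn4 and Slc8a1, neither of them called, changed sign, and leaving out 1 array gave -0.36 to 0.44 for Ntn4 and -0.013 to 0.018 for Slc8a1. Of 282 named genes, 270 were called, and 5, 7 and 6 of these lost the call without replicates 1, 2 and 3, 5 in the shared fit and 133 against 1.5-fold. Few arrays, a single dye orientation and the lack of background flags limit what these ratios can show.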

Other observations

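Features without a single gene symbol behaved unlike the named ones on the truncated arrays. Of 4175 such features, 452 were at least 2-fold lower by the mean, with all 3 arrays lower. Among the 4159 with no symbol and no accession class the share was 10.8% lower and 1.76% higher, against 0.527% and 2.16% of the 18218 named features. The median log2 ratios of the 452 features, which were chosen for being low, were -1.36, -1.85 and -1.76 on truncated replicates 1, 2 and 3. On the full-length arrays the same features had medians of -2.97, -3.34 and -3.85, and 443 of them were at least 2-fold lower by the mean there. On a full-length array 171 features lay at the lowest value the file holds, and none of these was a named gene. These features cannot be named here, and what they measure was not tested.

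The genes at least 2-fold higher had a median gene length of 24.0 kb and those at least 2-fold lower one of 18.5 kb, against 19.7 kb over all genes.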
